A study of Mus musculus with 19 samples.

Results

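Integrins and adhesion molecules were followed through mouse Th2 cells after deletion of Bcl11b or of Gata3. They were chosen by name, and all 35 genes of the set were found among the 22878 gene symbols of the RNA tables. The set holds 18 integrin alpha subunits, 8 integrin beta subunits, 3 immunoglobulin superfamily ligands of integrins (Icam1, Icam2 and Vcam1), the P-selectin gene Selp, the selectin ligand gene Selplg, the hyaluronan receptor gene Cd44, and Cd2, Cd48 and Cd47. Each gene was read from the transcript with the most reads over the 16 RNA libraries. Levels are given in CPM, read counts per 1000000 reads of the library, whose size the TMM method adjusts for composition. T helper 2 (Th2) cells are the CD4 T cells that make interleukins 4, 5 and 13. Bcl11b, a zinc-finger protein, fixes the T cell fate in the thymus, and GATA3 is the master regulator of the Th2 programme.

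The RNA libraries form 8 groups of 2. In the Bcl11b experiment, naive CD4 T cells carried floxed Bcl11b alleles and CreERT2, a Cre recombinase that 4-hydroxytamoxifen (4-OHT) switches on. Late Bcl11b KO and late Bcl11b WT cells had 4 days of Th2 culture, 1 day of rest in medium with IL-2 and 4 further days of Th2 culture, in which only KO cells received 4-OHT. Early Bcl11b KO and early Bcl11b WT cells had 4 days of Th2 culture, with 4-OHT in KO cultures alone. All 4 groups thus carried the floxed gene and CreERT2, and the effect of 4-OHT and that of the deletion cannot be told apart. The other 4 groups are late Gata3 KO, late Gata3 WT, early Gata3 KO and early Gata3 WT, and neither their alleles nor their cultures are given in the sources used here. Bcl11b and GATA3 binding was mapped by ChIP-seq in cells labelled late Th2 WT, with 1 library per antibody and 1 input library. Whether libraries of a group came from separate mice or cultures is not stated, so p-values measure only the spread between these libraries.

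An integrin is a pair of one alpha and one beta subunit that spans the membrane and binds matrix proteins or ligands on other cells. On T cells, LFA-1 (Itgal with Itgb2) binds ICAMs, VLA-4 (Itga4 with Itgb1) binds VCAM-1 and fibronectin, the alpha4-beta7 integrin (Itga4 with Itgb7) binds MAdCAM-1 of gut venules, and the alphaE-beta7 integrin (Itgae with Itgb7) binds E-cadherin on epithelium. The alphaV subunit (Itgav) pairs with several beta subunits, among them those of Itgb1, Itgb3 and Itgb5. RNA of a subunit does not tell how much of a pair is on the cell surface.

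RefSeq promoter windows, 300 bases from 250 before to 50 after a gene's start, were at hand for 23 of the 35 genes. Windows of 4 genes are shown because the results below turn on them: Itga4, Itgb7 and Cd44 responded to Gata3 deletion in a way that differed between stages, and Cd47 was assigned more peaks than any of the other 34 genes. Capitals mark letters searched on both strands: for GATA factors AGATAA, its form that ends in G (AGATAG), the form that starts with T (TGATAA) and the form with both changes (TGATAG), for RUNX factors TGTGGT, and for ETS factors CCGGAAG. The sequences follow the strand of the gene and come from RefSeq (GRCm38.p6), chr2:79255176-79255475 on the plus strand for Itga4, chr15:102231886-102232185 on the minus strand for Itgb7, chr2:102901616-102901915 on the minus strand for Cd44 and chr16:49855404-49855703 on the plus strand for Cd47.
Itga4: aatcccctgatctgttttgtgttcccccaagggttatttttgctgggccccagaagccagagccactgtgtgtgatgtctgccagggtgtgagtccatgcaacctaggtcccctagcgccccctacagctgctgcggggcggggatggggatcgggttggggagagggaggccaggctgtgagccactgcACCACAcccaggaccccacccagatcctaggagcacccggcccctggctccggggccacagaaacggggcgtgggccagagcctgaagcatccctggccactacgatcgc
Itgb7: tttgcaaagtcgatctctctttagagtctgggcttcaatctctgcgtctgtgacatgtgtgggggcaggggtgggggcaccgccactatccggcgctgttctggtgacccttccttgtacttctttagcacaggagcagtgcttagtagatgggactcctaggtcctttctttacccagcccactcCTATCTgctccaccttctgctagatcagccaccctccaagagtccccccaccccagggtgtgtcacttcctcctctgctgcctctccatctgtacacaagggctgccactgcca
Cd44: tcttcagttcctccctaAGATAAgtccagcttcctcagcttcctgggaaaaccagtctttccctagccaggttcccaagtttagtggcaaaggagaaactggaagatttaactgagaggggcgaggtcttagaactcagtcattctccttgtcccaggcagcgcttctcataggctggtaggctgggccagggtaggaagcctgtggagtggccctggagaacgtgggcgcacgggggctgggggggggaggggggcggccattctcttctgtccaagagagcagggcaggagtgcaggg
Cd47: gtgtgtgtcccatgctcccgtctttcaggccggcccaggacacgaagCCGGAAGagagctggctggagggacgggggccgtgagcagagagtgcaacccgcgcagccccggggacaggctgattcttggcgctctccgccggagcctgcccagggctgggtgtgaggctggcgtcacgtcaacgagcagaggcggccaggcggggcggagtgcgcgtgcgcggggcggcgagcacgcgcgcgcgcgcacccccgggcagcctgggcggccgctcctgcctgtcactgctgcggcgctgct
The Itga4 window holds 1 RUNX match 60 bases before the start, the Itgb7 window 1 GATA match, the Cd44 window 1 GATA match and the Cd47 window 1 ETS match. GATA letters occurred in windows of 3 of the 23 genes (Cd44, Itgax and Itgb7) and in 29.8% of all 32851 windows. RUNX letters occurred in windows of 4 genes (Cd48, Itga3, Itga4 and Itgax) and in 16.8% of all windows, and ETS letters in windows of 3 genes and in 8.86% of all windows. A match describes the letters alone.

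Several properties of the libraries touch these genes. Reads assigned to genes numbered 4687559 to 14577958 per library in the Bcl11b experiment and 5117529 to 9892744 in the Gata3 experiment. The 2 early Bcl11b WT libraries stood apart: silent sensory receptor genes held 3.78 and 4.88 reads per kb there, against at most 0.51 in the other 14 libraries. The targeted gene Bcl11b had 75.6 and 137 CPM in late KO, against 140 and 181 CPM in late WT, and 66.5 and 54.2 CPM in early KO, against 126 and 128 CPM in early WT, so the second late KO library was near WT. Gata3 had 1090 and 954 CPM in late KO, against 1382 and 1327 CPM in late WT, and 425 and 419 CPM in early KO, against 1178 and 1280 CPM in early WT. Which exons were deleted is not stated, and reads outside them can remain. In the Gata3 experiment, late and early WT libraries of the same number differed less (chi-square per degree of freedom 4.26 and 2.52 over genes) than the 2 libraries within late WT (13.5) or early WT (12.8), though by more than sampling noise. The labels give them as separate stages. The T cell marker list, 10 of 10 genes detected in all 8 groups, summed to between 4362 and 9637 CPM per library.

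Of the 35 genes, 23 passed the filter on low values (RPKM of 1 or more in 2 or more of the 8 libraries) in the Bcl11b experiment and 18 of these also in the Gata3 experiment. The 5 that passed in the Bcl11b experiment alone were Itga2, Itga3, Itga5, Itgax and Selp. The other 12 were tested nowhere: Itga1, Itga8, Itga9, Itga10, Itga11, Itgad, Itgam, Itga2b, Itgb4, Itgb6, Itgb8 and Vcam1. Outside the early Bcl11b WT libraries these 12 genes did not exceed 13.6 CPM in any library. Itga8 and Itgb6 had no read in the other 14 libraries, while the early Bcl11b WT libraries held 34 and 30 reads of them in sum. Their reads per kb there were 0.248 to 1.23 times the rate over sensory receptor genes for Itga8 and 0.628 to 0.81 times for Itgb6. Vcam1, the ligand of VLA-4, had 1 read in the other 14 libraries.

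**Figure D1:**
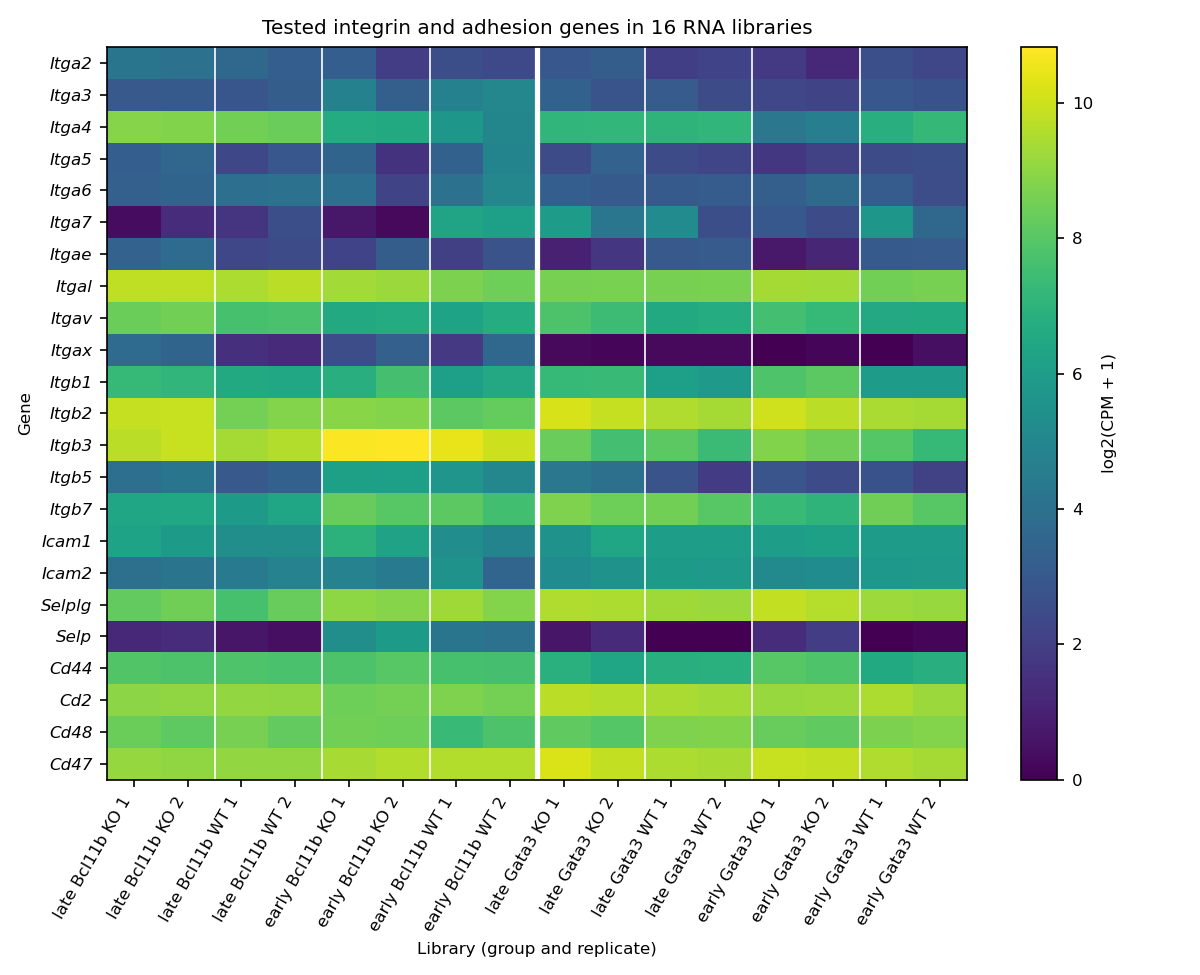
Levels of the 23 tested adhesion genes (rows) in the 16 RNA libraries (columns), as log2(CPM + 1) by colour, with the Bcl11b experiment left of the thick white line and the Gata3 experiment right of it. Itgb3 is brightest in the early Bcl11b KO and WT libraries (1017 to 1811 CPM), and Itga4 is dark in the early Gata3 KO libraries (18.6 and 23.6 CPM).

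Per length, Cd2, Cd47, Cd48 and Itgb2 were among the 6 most abundant transcripts of the set in all 8 groups. Cd2, a receptor for Cd48 in mice, averaged 442 ± 14.8 CPM per kb in late Bcl11b KO and 463 ± 9.82 in late Bcl11b WT (SD, n = 2 each). Among integrin subunits, Itgb2 ranked highest per kb in all 4 Gata3 groups and in late Bcl11b KO, with means of 365 ± 56.3 CPM per kb in late Gata3 KO and 246 ± 19.4 in late Gata3 WT. In late Bcl11b WT the ranks of Itgal (149 ± 15.9 CPM per kb) and Itgb2 (144 ± 18.7) lay within their spread. In early Bcl11b cells Itgb3, which pairs with alphaV as a vitronectin receptor, ranked first among integrins at 305 ± 11.9 CPM per kb in KO and 212 ± 50.5 in WT. The alpha4 partner subunits were uneven: Itga4 averaged 2.15 CPM per kb and Itgb7 54.7 in early Gata3 KO, while Itga4 averaged 13.3 and Itgb7 115 in early Gata3 WT. CPM were scaled within each experiment, so levels of both experiments are set side by side only loosely.

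Of the 4 comparisons of KO with WT cells, Gata3 deletion in early cells had the most adhesion genes called: 13 of the 18 tested genes passed, 8 higher and 5 lower. Over all 10601 genes tested, 30.7% were called, 14% higher and 16.8% lower. A call is an adjusted p under 0.05 in edgeR's quasi-likelihood test. Overlap of groups, with 2 libraries each, only describes the values of single genes, and its share over all genes was not counted. The median log2 fold change of the 18 genes was 0.35, against -0.003 over all genes. The alpha subunit genes Itga4 and Itgae, the beta subunit gene Itgb7, Icam2 and Cd48 fell. The beta subunit genes Itgb1, Itgb2 and Itgb3, the alpha subunit genes Itgal and Itgav, and Cd44, Selplg and Cd47 rose.

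Itga4, the alpha subunit of VLA-4 and of the gut-homing alpha4-beta7 integrin, had 18.6 and 23.6 CPM in early Gata3 KO, against 114 and 148 CPM in early Gata3 WT. Both KO libraries lay far below both WT libraries, and the log2 fold change was -2.63 ± 0.16 (SE, adjusted p = 2.02e-06). Its partner Itgb7 had 162 and 131 CPM in early KO, against 359 and 254 CPM in early WT. The groups did not overlap (log2 fold change -1.07 ± 0.21, adjusted p = 0.00357). Itgb1, the other partner of Itga4 and the common beta subunit of matrix receptors, went the opposite way, with 227 and 273 CPM in early KO, against 62.3 and 62.0 CPM in early WT. Its rise was the largest among the 18 genes (log2 fold change 2.01 ± 0.14, adjusted p = 4.45e-06). Itgae, the alphaE subunit that retains T cells at epithelium, had 0.65 and 1.26 CPM in early KO, against 7.32 and 7.52 CPM in early WT. It fell by 2.95 ± 0.41 on the log2 scale (adjusted p = 0.000381), at a level that is low in both groups. In the Gata3 experiment Itgae passed the filter on low values only through the WT libraries, where it is higher.

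Both subunit genes of LFA-1, the integrin that holds T cells to ICAM-bearing cells, were higher in early Gata3 KO. Itgal had 666 and 646 CPM in early KO, against 365 and 384 CPM in early WT (log2 fold change 0.81 ± 0.10, adjusted p = 0.00017). Itgb2 had 1049 and 826 CPM in early KO, against 704 and 665 CPM in early WT, a smaller difference (log2 fold change 0.45 ± 0.15, adjusted p = 0.0439). Cd44, the hyaluronan receptor used as a marker of activated T cells, had 259 and 225 CPM in early KO, against 95.2 and 113 CPM in early WT (log2 fold change 1.22 ± 0.16, adjusted p = 0.00031). In none of these 3 genes did the groups overlap. Itgav had 190 and 153 CPM in early KO, against 91.4 and 93.7 CPM in early WT (log2 fold change 0.89 ± 0.16, adjusted p = 0.00177). Itgb3 had 437 and 358 CPM in early KO, against 252 and 152 CPM in early WT (log2 fold change 0.98 ± 0.31, adjusted p = 0.037). The KO libraries were higher in both. Itgb3 spread widely, and in each group of the Gata3 experiment its first library lay above its second. The same held for Itgb2, Itgb5, Itgb7, Itga7, Selplg and Cd47, among others, but not for Cd2 or Cd48.

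Smaller differences were seen in the receptors for partner cells. Selplg, which encodes the P-selectin ligand PSGL-1, had 911 and 783 CPM in early Gata3 KO, against 599 and 567 CPM in early WT (log2 fold change 0.54 ± 0.11, adjusted p = 0.00509). Cd47, the integrin-associated protein that binds SIRP-alpha and thrombospondin, had 972 and 910.1 CPM in early KO, against 730 and 656 CPM in early WT (log2 fold change 0.44 ± 0.14, adjusted p = 0.0335). Both were higher in KO with no overlap of the groups. Cd48, a ligand of Cd2, had 314 and 289 CPM in early KO, against 408 and 446 CPM in early WT (log2 fold change -0.50 ± 0.12, adjusted p = 0.00816). Icam2, a ligand of LFA-1, had 34.97 and 37.9 CPM in early KO, against 53.8 and 56.6 CPM in early WT (log2 fold change -0.60 ± 0.13, adjusted p = 0.00582). These ligands were both lower in KO. The 5 genes not called were Cd2, Icam1, Itga6, Itga7 and Itgb5, with log2 fold changes between -2.44 for Itga7, whose libraries spread widely, and 0.71 for Itga6. The call of Cd47 was lost without any of the 4 early libraries, that of Cd48 without the second early WT or second early KO library, those of Icam2 and Selplg without the first early KO library, that of Itgb3 without either early KO library or the second early WT library, and that of Itgb2 without the first early KO library or any WT library (adjusted p from 0.0547 to 0.308). The other 7 calls kept an adjusted p under 0.05 without any single library. The call of Itgb3 was also lost with DESeq2 (adjusted p = 0.0921) and with limma on log2(RPKM + 0.1) (adjusted p = 0.0542).

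Markers of other cells moved with this comparison. The NK cell list, 5 of 5 genes in the files, summed to 292 and 322.5 CPM in early Gata3 KO, against 1.13 and 3.93 CPM in early WT, and all 4 of its tested genes were higher. With WT sums this low, the direction of its tested genes is not independent of the filter on low values. Eomes had a mean of 206 CPM, Klrb1c 43.5, Klrk1 31.2 and Klrd1 27.1 in early KO, while Ncr1, the defining NK receptor gene of the list, had no read in either group. T cells can express these genes too, and the part of other cells in the adhesion differences was not tested. In bulk RNA, fewer cells of a type and less RNA per cell cannot be told apart.

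**Figure D2:**
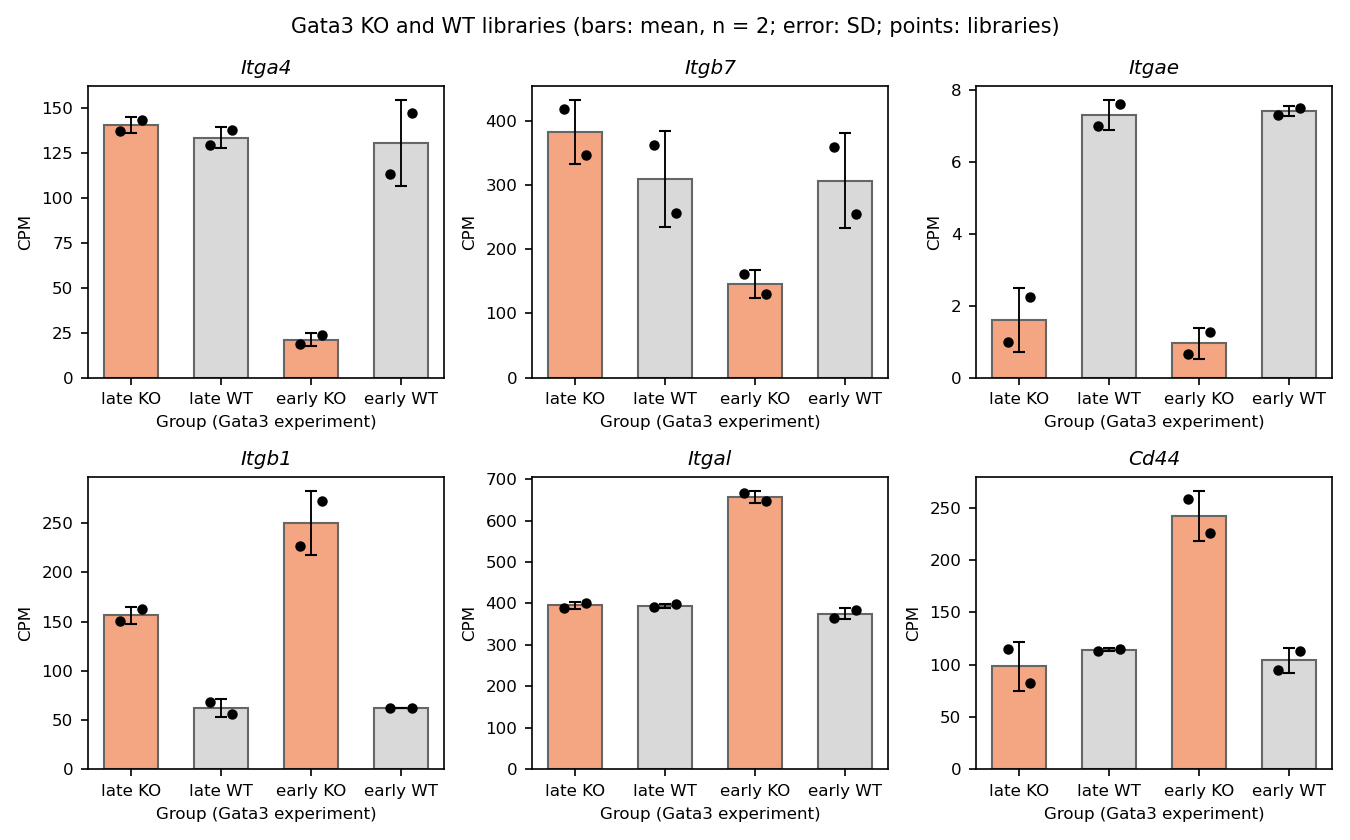
CPM of Itga4, Itgb7, Itgae, Itgb1, Itgal and Cd44 in the late KO, late WT, early KO and early WT groups of the Gata3 experiment; bars are means, error bars SD and points the 2 libraries of a group. Itga4 and Itgb7 are low and Itgal and Cd44 high in early KO alone, while Itgae is low and Itgb1 high in late KO and early KO.

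The abundant genes outside these calls lay close in KO and WT cells of the Gata3 experiment. Cd2 had 845 and 760 CPM in late KO, against 694 and 641 CPM in late WT (log2 fold change 0.26 ± 0.12, adjusted p = 0.209), and 562 and 585 CPM in early KO, against 718 and 589 CPM in early WT (log2 fold change -0.19 ± 0.12, adjusted p = 0.294). Icam1 had 45.0 and 81.5 CPM in late KO, against 66.2 and 64.7 CPM in late WT, and 65.1 and 69.7 CPM in early KO, against 62.3 and 60.8 CPM in early WT. Selplg had 749 and 710.1 CPM in late KO, against 629.9 and 589.9 CPM in late WT (log2 fold change 0.26 ± 0.11, adjusted p = 0.176). Neither Cd2 nor Icam1 was called at either stage, and Selplg was not called in late cells. Itgb3 had 324 and 194 CPM in late KO, against 271 and 168 CPM in late WT (log2 fold change 0.23 ± 0.31, adjusted p = 0.678), with overlapping groups. Some alpha subunit genes were scarce in this experiment: Itga2 lay between 1.37 and 8.11 CPM, Itga3 between 3.66 and 9.2, Itga5 between 2.38 and 9.63 and Itga6 between 4.89 and 12.5 CPM over its 8 libraries, and Itgax at most at 0.376 CPM.

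In late Gata3 KO cells 8 of the 18 tested genes were called, 5 higher and 3 lower, against 14% of all genes (8.44% higher and 5.59% lower). The median log2 fold change of the 18 genes was 0.25, against 0.004 over all genes. Itgb1 had 150.1 and 163 CPM in late KO, against 68.6 and 55.5 CPM in late WT (log2 fold change 1.34 ± 0.14, adjusted p = 0.000227). Itgav had 225 and 170.0 CPM in late KO, against 93.4 and 103 CPM in late WT (log2 fold change 1.00 ± 0.16, adjusted p = 0.00243). Itgb5, a beta subunit that pairs with alphaV, had 18.4 and 14.9 CPM in late KO, against 5.86 and 2.68 CPM in late WT (log2 fold change 1.95 ± 0.37, adjusted p = 0.00733). The alphaV subunit and its partners from Itgb1 and Itgb5 were thus higher in both KO libraries than in both WT libraries. Itgb2 had 1159 and 931 CPM in late KO, against 745 and 666 CPM in late WT (log2 fold change 0.57 ± 0.15, adjusted p = 0.0325). Cd47 had 1188 and 921 CPM in late KO, against 722 and 675 CPM in late WT (log2 fold change 0.59 ± 0.14, adjusted p = 0.0176). These were also higher with no overlap.

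The 3 genes that fell in late Gata3 KO were Itgae, Cd48 and Icam2. Itgae had 0.979 and 2.23 CPM in late KO, against 7.01 and 7.61 CPM in late WT (log2 fold change -2.06 ± 0.38, adjusted p = 0.00598). Cd48 had 288 and 249 CPM in late KO, against 419 and 442 CPM in late WT (log2 fold change -0.68 ± 0.12, adjusted p = 0.00385). Icam2 had 37.8 and 45.2 CPM in late KO, against 58.5 and 56.8 CPM in late WT (log2 fold change -0.47 ± 0.13, adjusted p = 0.0395). All 3 groups of KO values lay below those of WT. The calls of Cd47 and Itgb2 were lost without either late WT library or the first late KO library, and that of Icam2 without any library but the second late KO library (adjusted p from 0.0501 to 0.187). Those 3 calls were also lost when only the 4 late libraries were fitted (adjusted p from 0.0529 to 0.0925) and with limma on log2(RPKM + 0.1) (adjusted p from 0.0513 to 0.0843), that of Icam2 also with DESeq2 (adjusted p = 0.0655), and those of Icam2 and Itgb2 also with limma on log2(RPKM + 1). Those of Itgae, Itgav, Itgb1, Itgb5 and Cd48 were kept without any single library. The macrophage and dendritic cell list summed to 18.6 and 23.7 CPM in late KO, against 26.5 and 44.6 CPM in late WT, and the NK list to 7.83 and 13.4 CPM in late KO, against 1.5 and 3.14 CPM in late WT. The neutrophil list summed to 11.6 to 22.5 CPM in late KO and 2.72 to 2.79 CPM in late WT, with S100a8, S100a9 and Elane at 0 in both groups. Their part was not tested.

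For 4 genes the effect of Gata3 deletion differed between late and early cells, by a test of the difference itself, where 12.2% of all genes were called. Itga4 had 137 and 144 CPM in late KO, against 130 and 138 CPM in late WT (log2 fold change 0.07 ± 0.15), so that the late effect exceeded the early one by 2.71 ± 0.22 on the log2 scale (adjusted p = 9.67e-05). Itgb7 had 419 and 348 CPM in late KO, against 363 and 257 CPM in late WT (log2 fold change 0.30 ± 0.21), and its late effect exceeded the early one by 1.37 ± 0.30 (adjusted p = 0.0148). The fall of the alpha4-beta7 subunit genes in early KO was thus not present in late KO. Cd44 had 115 and 82.0 CPM in late KO, against 113 and 115 CPM in late WT, and its late effect was below the early one (difference of log2 fold changes -1.44 ± 0.23, adjusted p = 0.00345). Itgal had 389 and 401 CPM in late KO, against 390.2 and 398 CPM in late WT (difference -0.80 ± 0.14, adjusted p = 0.00508). For both, the late KO libraries overlapped the WT range. The difference of Itgb7 was lost without the second early KO library or the first late KO library (adjusted p = 0.0558 and 0.0806) and with limma on log2(RPKM + 0.1) (adjusted p = 0.052), and the other 3 were not lost without any single library. The Gata3 RNA itself was closer to WT in late KO than in early KO, as given above, so stage and remaining Gata3 RNA cannot be told apart. Between late and early Gata3 WT cells no adhesion gene was called by edgeR, none of the 18 had an unadjusted p under 0.05, DESeq2 called none of them, and 0% of all genes were called.

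**Figure D3:**
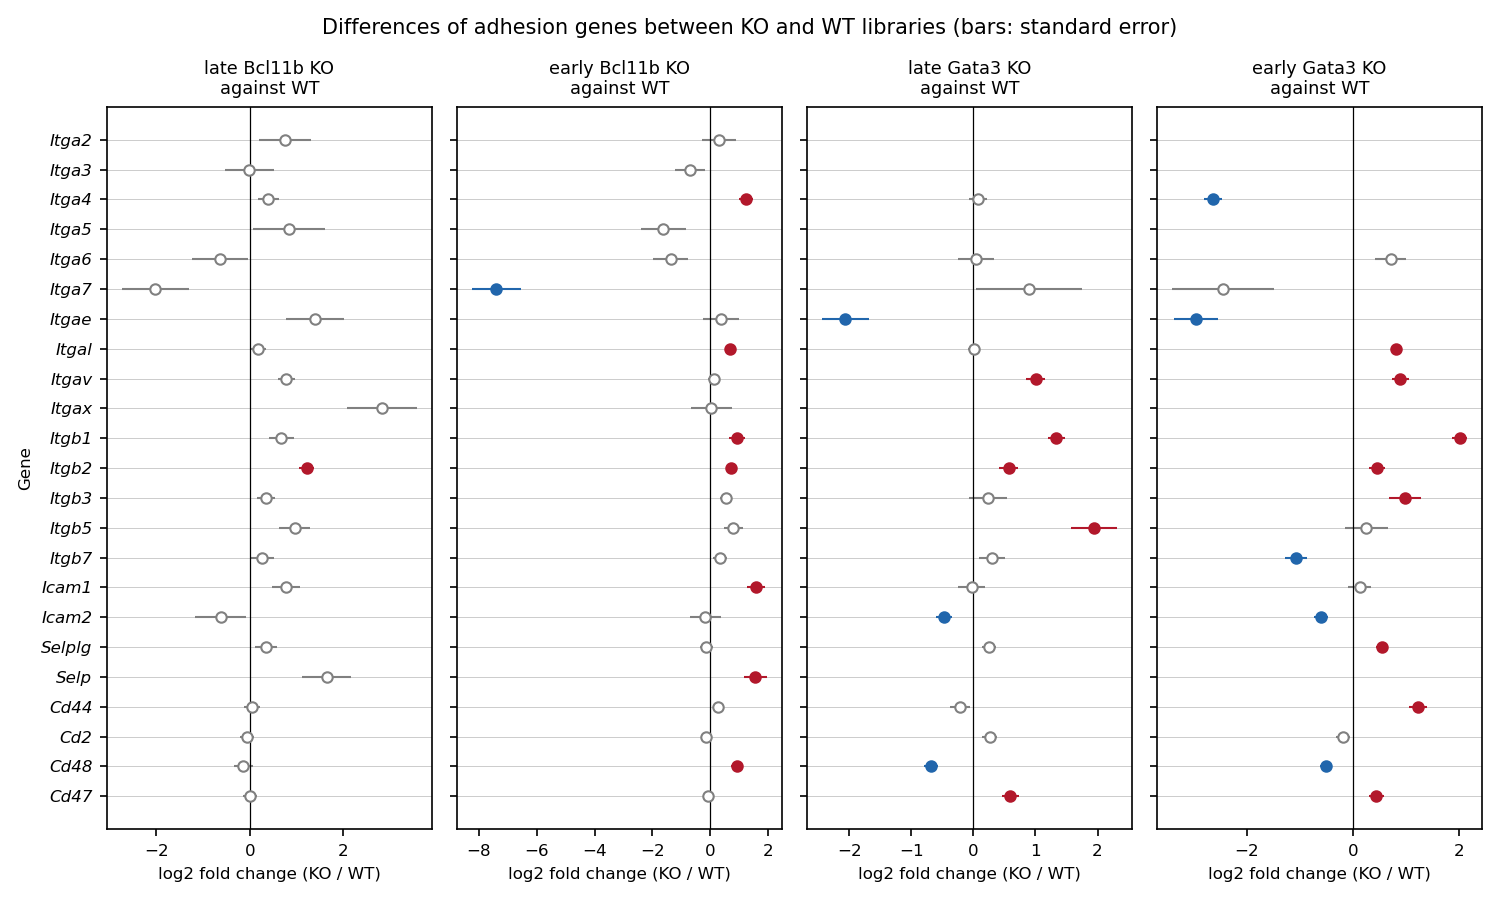
Log2 fold changes (KO over WT, horizontal axis) with standard errors for the tested adhesion genes (vertical axis) in 4 comparisons. Filled red points rose and filled blue points fell at an adjusted p under 0.05, open points were not called, and the horizontal scales differ between panels: Itga7 reaches -7.39 in early Bcl11b KO, and Itga4 lies at -2.63 in early Gata3 KO.

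In early Bcl11b KO cells 8 of the 23 tested adhesion genes were called, 7 higher and 1 lower, while 21% of all 10870 genes were called (11% higher and 10.1% lower). The median log2 fold change of the 23 genes was 0.30, against 0.03 over all genes. All of these calls rest on the early Bcl11b WT libraries, which stood apart from the other 14. Itga4 had 101 and 94.5 CPM in early Bcl11b KO, against 52.8 and 30.6 CPM in early WT (log2 fold change 1.23 ± 0.24, adjusted p = 0.00585). Icam1, the inducible ligand of LFA-1, had 124 and 74.7 CPM in early KO, against 38.3 and 28.3 CPM in early WT (log2 fold change 1.58 ± 0.31, adjusted p = 0.00622). Both were higher in each KO library than in each WT library. Itgal had 635 and 584 CPM in early KO, against 413 and 349.8 CPM in early WT (log2 fold change 0.68 ± 0.16, adjusted p = 0.0137). Itgb2 had 478 and 453 CPM in early KO, against 272 and 302 CPM in early WT (log2 fold change 0.70 ± 0.16, adjusted p = 0.0118). The LFA-1 subunit genes were thus both higher in early Bcl11b KO.

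Itgb1 had 111 and 196 CPM in early Bcl11b KO, against 68.7 and 92.0 CPM in early WT (log2 fold change 0.93 ± 0.27, adjusted p = 0.0362). Cd48 had 371 and 348 CPM in early KO, against 162 and 221 CPM in early WT (log2 fold change 0.91 ± 0.21, adjusted p = 0.0119). Selp, which encodes P-selectin and is best known from platelets and endothelium, had 39.2 and 58.9 CPM in early KO, against 17.4 and 15.9 CPM in early WT (log2 fold change 1.56 ± 0.40, adjusted p = 0.0211). Selp passed the filter on low values only with the early KO libraries, where it is high. Its call is thus not independent of that filter. For Itgb1, Cd48 and Selp the groups did not overlap, though the Itgb1 libraries of KO differed widely. The platelet and megakaryocyte list (7 genes) summed to 0.626 and 3.31 CPM in early KO, against 37.5 and 45.2 CPM in early WT, with Pf4 at 0 in both KO libraries. In early WT 3 of the list's 7 genes reached 1 CPM, and the part of platelets in Selp was not tested. Other lists differed between these groups too. The neutrophil list (5 genes in the files, with S100a8, S100a9 and Elane at 0 in both groups) summed to 0.11 to 1.36 CPM in early KO and 72.5 to 98.0 CPM in early WT. The stromal and endothelial list (7 genes) summed to 1.21 to 2.61 CPM in early KO and 31.4 to 50.7 CPM in early WT. None of its genes passed the filter on low values. The receptor read rate of early WT was not taken off any of these sums, and its part in them was not tested. The mast cell and basophil list (7 genes) summed to 42.9 to 45.4 CPM in early KO and 6.28 to 16.1 CPM in early WT. In the last, Cpa3 was called higher (43.7 CPM in KO and 2.2 CPM in WT on average), while Ms4a2 and Fcer1a, which encode the IgE receptor, were at 0 in KO. Cpa3 passed the filter on low values only with the early KO libraries, where it is high. The part of the cells of these lists in the adhesion differences was not tested. Itga7, a laminin-binding alpha subunit, was the 1 gene that fell: 0.626 and 0.221 CPM in early KO, against 79.6 and 68.1 CPM in early WT (log2 fold change -7.39 ± 0.84, adjusted p = 0.000434). It passed the filter on low values only through the early WT libraries, where it is high. Its reads per kb there were 25.0 and 16.6 times the rate over silent receptor genes. Subtracting that rate from the counts ended the call of Itgb1, which was also lost in 6 of 8 leave-outs (all but those of the second early WT and first early KO library). The calls of Cd48, Itgal and Itgb2 were lost without the first early KO library, that of Cd48 also without the first early WT library, that of Itgal without the second, and that of Selp without the second early WT or second early KO library (adjusted p from 0.0518 to 0.271 over these leave-outs). The calls of Icam1, Itga4 and Itga7 were kept without any single library. When only the 4 early libraries were fitted, 3 of the 8 calls were left, and those of Itga4 (adjusted p = 0.0681), Itgal, Itgb1, Itgb2 and Selp were lost (adjusted p from 0.0604 to 0.131).

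The other abundant genes were not called in early Bcl11b KO. Itgb3, at the highest CPM of any adhesion gene in these cells, had 1714 and 1811 CPM in early KO, against 1429 and 1017 CPM in early WT (log2 fold change 0.53 ± 0.18, adjusted p = 0.068). Itgb7 had 314 and 261 CPM in early KO, against 270.0 and 185 CPM in early WT. Cd47 had 677 and 761 CPM in early KO, against 758 and 755 CPM in early WT. Of these, Itgb3 alone had groups that did not overlap. Cd2 had 345 and 382 CPM in early KO, against 421 and 382 CPM in early WT, and Cd44 224 and 254 CPM in early KO, against 203 and 197 CPM in early WT. Selplg had 509.9 and 461 CPM in early KO, against 616 and 456 CPM in early WT, and Icam2 27.1 and 21.7 CPM in early KO, against 44.6 and 10.7 CPM in early WT. Adjusted p-values of these genes lay between 0.295 for Cd44 and 0.847 for Icam2. The scarcer alpha subunit genes ranged over the 8 libraries of the experiment from 2.87 to 17.3 CPM for Itga2, from 6.51 to 31.4 CPM for Itga3, from 1.99 to 28.9 CPM for Itga5, from 3.64 to 31.0 CPM for Itga6 and from 1.44 to 12.6 CPM for Itgax.

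**Figure D4:**
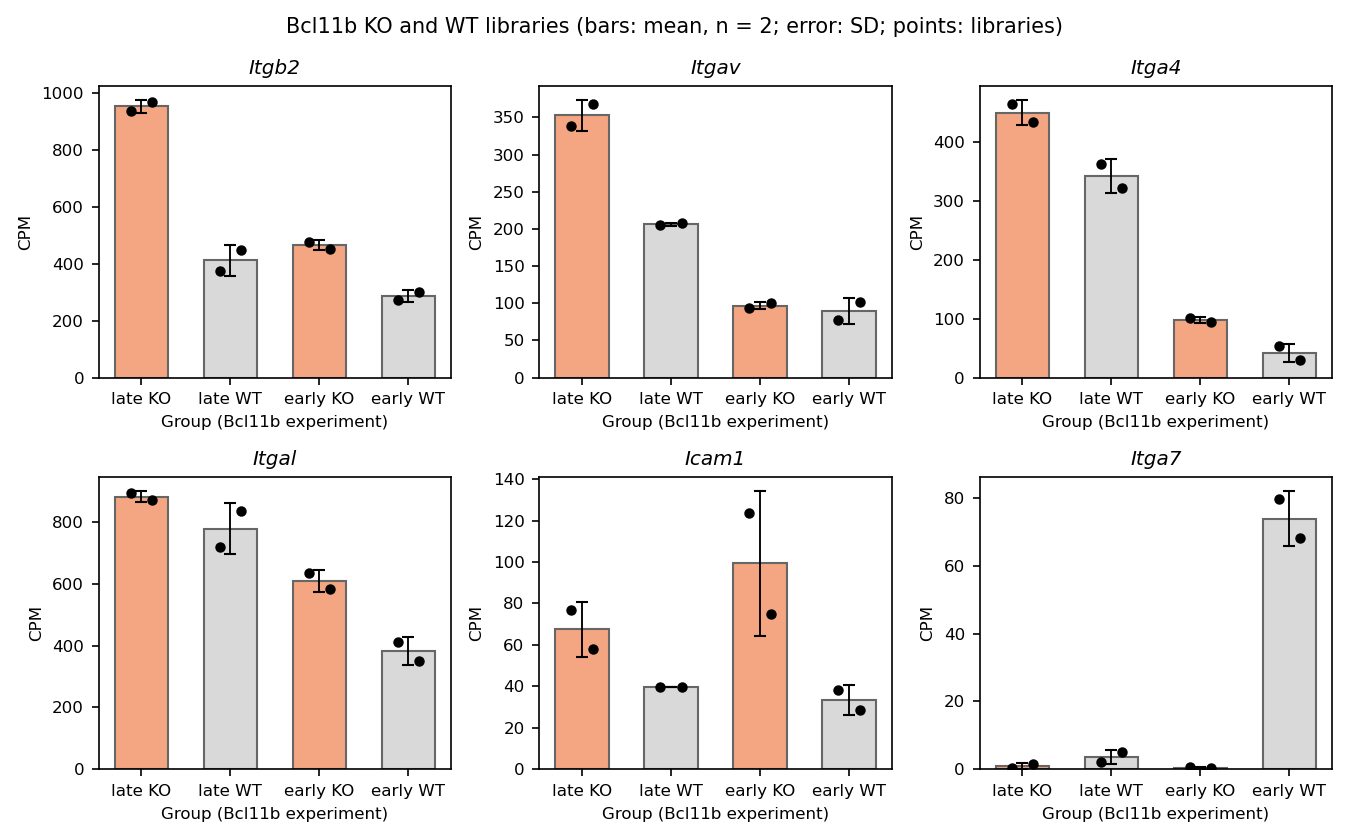
CPM of Itgb2, Itgav, Itga4, Itgal, Icam1 and Itga7 in the late KO, late WT, early KO and early WT groups of the Bcl11b experiment; bars are means, error bars SD and points the 2 libraries of a group. Itgb2 is higher in KO than in WT at each stage, and Itga7 is high in early WT alone (68.1 and 79.6 CPM).

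In late Bcl11b KO cells 1 of the 23 tested adhesion genes was called, against 2.22% of all genes (1.69% higher and 0.524% lower). This count depended on the fit: 8 adhesion genes were called when only the 4 late libraries were fitted, in which 1583 of 10781 genes were called in all, and 0 to 3 when a single library was left out. The gene called in the fit of all 8 libraries was Itgb2, the shared beta subunit of LFA-1 and of the other leukocyte integrins, which had 938 and 970 CPM in late KO, against 374 and 449.6 CPM in late WT (log2 fold change 1.21 ± 0.16, adjusted p = 0.00459). Both KO libraries exceeded both WT libraries, also that with Bcl11b RNA near the WT level. Itgb2 was the 1 adhesion gene called in late and in early Bcl11b KO cells. The call was lost without the first late WT library or without either late KO library (adjusted p from 0.0552 to 0.0779), and with limma on log2(RPKM + 0.1) (adjusted p = 0.13), with a log2 fold change between 1.02 and 1.35 over all alternatives. The median log2 fold change of the 23 genes was 0.35, against -0.02 over all genes, and 17 of the 23 were positive.

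Other adhesion genes had larger values in late Bcl11b KO without passing the test. Itgav had 338 and 368 CPM in late KO, against 205 and 207 CPM in late WT (log2 fold change 0.78 ± 0.18, adjusted p = 0.0612). Itgax, the alphaX subunit (CD11c) typical of dendritic cells and named after its values were seen, had 12.6 and 10.1 CPM in late KO, against 1.75 and 1.44 CPM in late WT (log2 fold change 2.82 ± 0.75, adjusted p = 0.0899). The groups of Itgav and Itgax did not overlap. Itgax passed the filter on low values only through the late KO libraries, where it is high. Its fold change and p-value are thus not independent of that filter. The macrophage and dendritic cell list summed to 49.2 and 49.9 CPM in late KO, against 14.1 and 17.1 CPM in late WT, and 8 of its 9 genes in the files reached 1 CPM in late KO, against 4 in late WT. The B cell list summed to 20.7 and 33.6 CPM in late KO, against 5.7 and 5.88 CPM in late WT. The platelet and megakaryocyte list summed to 23.1 to 23.7 CPM in late KO and 2.24 to 4.04 CPM in late WT, with Gp9 and Treml1 at 0 in both groups. Its gene Ppbp was called higher (adjusted p = 0.038), a call lost without any of the 4 late libraries. The part of such cells in Itgax or Itgb2 was not tested. Icam1 had 77.0 and 58.1 CPM in late KO, against 39.7 and 39.5 CPM in late WT (log2 fold change 0.77 ± 0.30, adjusted p = 0.279). Itgae had 9.43 and 12.97 CPM in late KO, against 3.92 and 4.62 CPM in late WT (log2 fold change 1.39 ± 0.62, adjusted p = 0.371). Like Itgax, it passed the filter only through the late KO libraries.

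Further abundant genes had values near each other in late Bcl11b KO and WT. Cd47 had 549.8 and 525 CPM in late KO, against 539.9 and 533 CPM in late WT. Cd2 had 494 and 518 CPM in late KO, against 538 and 522 CPM in late WT. Cd44 had 234 and 221 CPM in late KO, against 229.8 and 211 CPM in late WT. The log2 fold changes were 0.003 ± 0.142 for Cd47, -0.07 ± 0.15 for Cd2 and 0.05 ± 0.16 for Cd44, none of them beyond its standard error. Itgb3 had 837 and 974 CPM in late KO, against 652 and 771 CPM in late WT (log2 fold change 0.35 ± 0.18, adjusted p = 0.502). Selplg had 301 and 359.6 CPM in late KO, against 204 and 316 CPM in late WT, and Icam2 14.7 and 17.0 CPM in late KO, against 21.9 and 26.9 CPM in late WT. Neither was called, with adjusted p of 0.657 for Selplg and 0.786 for Icam2.

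The Bcl11b effect differed between late and early cells in 1 of the 23 genes, Itga7, where 3.24% of all genes were called (difference of log2 fold changes 5.38 ± 1.10, adjusted p = 0.0314). Itga7 had 0.286 and 1.58 CPM in late KO, against 2.1 and 5.05 CPM in late WT. The gene passed the filter only through the early WT libraries, and the difference between stages rests on them. It was lost without either late WT library, the second late KO library or the second early KO library (adjusted p from 0.0542 to 0.274). Late and early Bcl11b WT cells differed in 14 of the 23 genes, against 41.6% of all genes, and this too rests on the early WT libraries. Itga4 had 361 and 321 CPM in late WT, against 52.8 and 30.6 CPM in early WT (log2 fold change 3.03 ± 0.25, adjusted p = 1.03e-05). Itgb7 had 57.8 and 81.6 CPM in late WT, against 270.0 and 185 CPM in early WT (log2 fold change -1.71 ± 0.24, adjusted p = 0.000393). The alpha4 and beta7 subunit genes thus went opposite ways between these groups. Among KO cells, which lack the excess of receptor reads, Itga4 had 464 and 434 CPM in late Bcl11b KO, against 101 and 94.5 CPM in early Bcl11b KO. Itgb7 had 80.6 and 87.3 CPM in late KO, against 314 and 261 CPM in early KO. This pair of groups was not tested.

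The late effects of both deletions differed in 1 of the 23 genes, Itgae, where 3.67% of all genes were called. The late Bcl11b effect on Itgae exceeded the late Gata3 effect by 3.49 ± 0.76 on the log2 scale (adjusted p = 0.0176). Itgae was higher in both late Bcl11b KO libraries and lower in both late Gata3 KO libraries than in their WT libraries, with the values given above. Its levels were low, at most 12.97 CPM in any library. Itgae passed the filter only through late KO in the Bcl11b experiment and only through WT in the Gata3 experiment. The direction of this difference is thus not independent of the filter. Subtracting the receptor read rate ended this call, as did leaving out either late WT library of the Bcl11b or Gata3 experiment, the second late Bcl11b KO library or the first late Gata3 KO library (adjusted p from 0.0504 to 0.0856).

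Wider adhesion lists were read in the same tests, in which 30.7% of all genes were called in early Gata3 KO, 14% in late Gata3 KO, 21% in early Bcl11b KO and 2.22% in late Bcl11b KO. Of 30 tested genes of integrin activation and linkage to actin, 9 were called in early Bcl11b KO (6 higher and 3 lower) and none in late Bcl11b KO, where 3 had an unadjusted p under 0.05. Of 28 such genes tested in the Gata3 experiment, 1 was called in late KO (Ptk2b, log2 fold change -0.52 ± 0.15, adjusted p = 0.0441, and 0.0812 to 0.178 without any of 5 single libraries, namely both late WT, both early KO and the second late KO library) and 9 in early KO, 6 higher and 3 lower. Rasgrp2, an exchange factor that activates the integrin switch Rap1, averaged 82.0 CPM in early Gata3 KO and 5.68 CPM in early WT (log2 fold change 3.85 ± 0.31, adjusted p = 1.1e-05). Rap1b, which encodes such a switch, averaged 397 CPM in early Bcl11b KO and 178 CPM in early WT (log2 fold change 1.15 ± 0.20, adjusted p = 0.00342). The list's median log2 fold change was 0.11 in early Gata3 KO, against -0.003 over all genes. Its share of called genes there (32.14%) was near that of all genes, and its share in late Gata3 KO (3.571%) was below it.

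The selectin list held selectins, the enzymes that build their ligands, and Glg1, Cd34, Podxl, Cd24a and Spn. Of its 13 genes tested in the Gata3 experiment, 10 were called in early KO, 6 higher and 4 lower, against 30.7% of all genes. In late Gata3 KO 4 of the 13 were called, against 14% of all genes. Fut7, the fucosyltransferase that completes selectin ligands, averaged 32.0 CPM in early Gata3 KO and 3.37 CPM in early WT (log2 fold change 3.24 ± 0.37, adjusted p = 0.000109). St3gal6, a sialyltransferase of the same pathway, averaged 2.57 CPM in late Gata3 KO and 81.5 CPM in late WT (log2 fold change -5.12 ± 0.24, adjusted p = 3.66e-06). In late Bcl11b KO 2 of 11 tested genes were called, both higher, against 2.22% of all genes, and in early Bcl11b KO 5 of 11 (4 higher and 1 lower), against 21% of all genes.

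Among further adhesion receptors, 5 of 14 tested genes were called in late Gata3 KO (4 higher and 1 lower), against 14% of all genes, and 8 of 14 in early Gata3 KO (5 higher and 3 lower), against 30.7%. In late Bcl11b KO 3 of 16 were called, all higher, against 2.22% of all genes, and in early Bcl11b KO 8 of 16 (4 higher and 4 lower), against 21%. Cd96, a nectin receptor, averaged 254 CPM in early Gata3 KO and 23.3 CPM in early WT (log2 fold change 3.45 ± 0.18, adjusted p = 7.54e-07). It also averaged 69.0 CPM in late Bcl11b KO and 22.5 CPM in late WT (log2 fold change 1.62 ± 0.25, adjusted p = 0.00995), a call lost without any of the 4 late Bcl11b libraries (adjusted p from 0.0565 to 0.164). Cd244, a receptor for Cd48, averaged 22.1 CPM in late Bcl11b KO and 0.25 CPM in late WT (log2 fold change 6.40 ± 0.63, adjusted p = 0.000898). In the Bcl11b experiment Cd244 passed the filter on low values only through KO libraries, where it is high. Of the tetraspanins, membrane partners of integrins, 3 of 8 tested genes were called in late Gata3 KO (14% of all genes), 4 of 8 in early Gata3 KO (30.7%), 1 of 9 in late Bcl11b KO (2.22%) and 4 of 9 in early Bcl11b KO (21%). Cd9 averaged 50.7 CPM in early Gata3 KO and 0.704 CPM in early WT (log2 fold change 6.12 ± 0.49, adjusted p = 1.05e-05). In the Gata3 experiment Cd9 too passed the filter only through KO libraries, where it is high. Of matrix ligands and cytokine genes that integrins activate, all 7 tested genes were called in early Gata3 KO, 3 higher and 4 lower, against 30.7% of all genes, and 3 of 7 in late Gata3 KO, against 14%. Lrrc32, which holds latent TGF-beta on the cell surface, averaged 223 CPM in late Gata3 KO and 15.8 CPM in late WT (log2 fold change 3.81 ± 0.25, adjusted p = 1.71e-05). In the Bcl11b experiment 2 of 10 genes of this list were called in late KO, against 2.22% of all genes, and 6 of 10 in early KO, against 21%. Spp1, the integrin ligand osteopontin, averaged 578 CPM in late Bcl11b KO and 78.2 CPM in late WT (log2 fold change 2.89 ± 0.49, adjusted p = 0.0155), a call lost without any of the 4 late Bcl11b libraries (adjusted p from 0.09 to 0.2).

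Binding was read from the authors' peak lists, in which each peak is assigned to the gene with the closest start site; peaks over an input peak were left out. Of the 35 genes, 27 (77.1%) had a Bcl11b peak and 31 (88.6%) a GATA3 peak, against 32.8% and 38.2% of all 22878 symbols. Both factors had a peak at 26 genes, and peaks of both overlapped at 21 genes (60%), against 15.8% of all symbols. The 35 genes are long, with a median gene length of 38999 bases, against 16305 bases over 20324 genes with a RefSeq entry. The part of gene length in these shares was not tested. Among tested genes, 21 of 23 had a Bcl11b peak, against 49.1% of all tested genes. Itga8, Vcam1 and Selp had no peak of either factor. With 1 library per antibody there is no replicate check of any peak.

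Cd47 was assigned 21 Bcl11b and 30 GATA3 peaks, 13 of them Bcl11b peaks that overlap a GATA3 peak, and the window over its start site met peaks of both factors. The Cd47 window shown above lies wholly inside a Bcl11b peak (authors' fold enrichment 2.95) and shares 106 bases with a GATA3 peak (fold enrichment 1.67). Itga4 was assigned 6 Bcl11b and 11 GATA3 peaks. Its promoter window lay wholly inside a Bcl11b peak at chr2:79254532-79256352 (authors' fold enrichment 2.38), and no GATA3 peak covered it. The strongest GATA3 peak of Itga4, at chr2:79249489-79250495, was centred 5.43 kb upstream of the start, with an authors' fold enrichment of 10.81. Itgb7, with 1 peak of each factor, had both in the gene body, 6.94 and 6.66 kb from the start, where they overlapped (fold enrichment 2.85 for Bcl11b and 6.77 for GATA3). The single GATA match of its promoter window lies outside these peaks.

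Itgae had overlapping peaks of both factors at its start site, with low fold enrichments (2.45 for Bcl11b and 1.5 for GATA3), and a stronger GATA3 peak in the gene body 5.09 kb from the start (fold enrichment 7.12). Itgb2 had 3 Bcl11b peaks between 1.18 and 10.39 kb inside the gene, of fold enrichment 1.82 to 2.43, and 5 GATA3 peaks. Itgb1 had no peak of either factor within 1 kb of its start; its strongest GATA3 peak was centred 93.33 kb upstream (fold enrichment 11.32). Itgav had a Bcl11b peak over its promoter window and GATA3 peaks centred 1.28 kb upstream and 20.91 kb into the gene (fold enrichment 6.36 and 7.52). Itgal had 1 peak of each factor, which overlapped near 10.9 kb upstream. Cd44 had 5 Bcl11b and 12 GATA3 peaks, and a Bcl11b peak shared 204 bases with its window. At a fold enrichment of at least 10, no Bcl11b peak and GATA3 peaks at 8 genes were left (Itga1, Itga2, Itga4, Itgam, Itgb1, Itgb3, Cd47 and Cd48). For GATA3 that is 22.9% of the 35 genes, against 4.77% of all symbols. Bcl11b peaks of that strength were found at only 0.424% of all symbols.

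The presence of a peak was shared by genes that were called and genes that were not. In late Gata3 KO all 8 called genes had a GATA3 peak (median 4.5 peaks), as did 9 of the 10 genes not called (median 4). In early Gata3 KO all 13 called genes had one (median 5 peaks), as did 4 of the 5 not called (median 4). In early Bcl11b KO 6 of the 8 called genes had a Bcl11b peak (median 1.5 peaks), against 15 of the 15 not called (median 3). The peaks come from cells labelled late Th2 WT, and binding in early cells was not measured here.

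**Figure D5:**
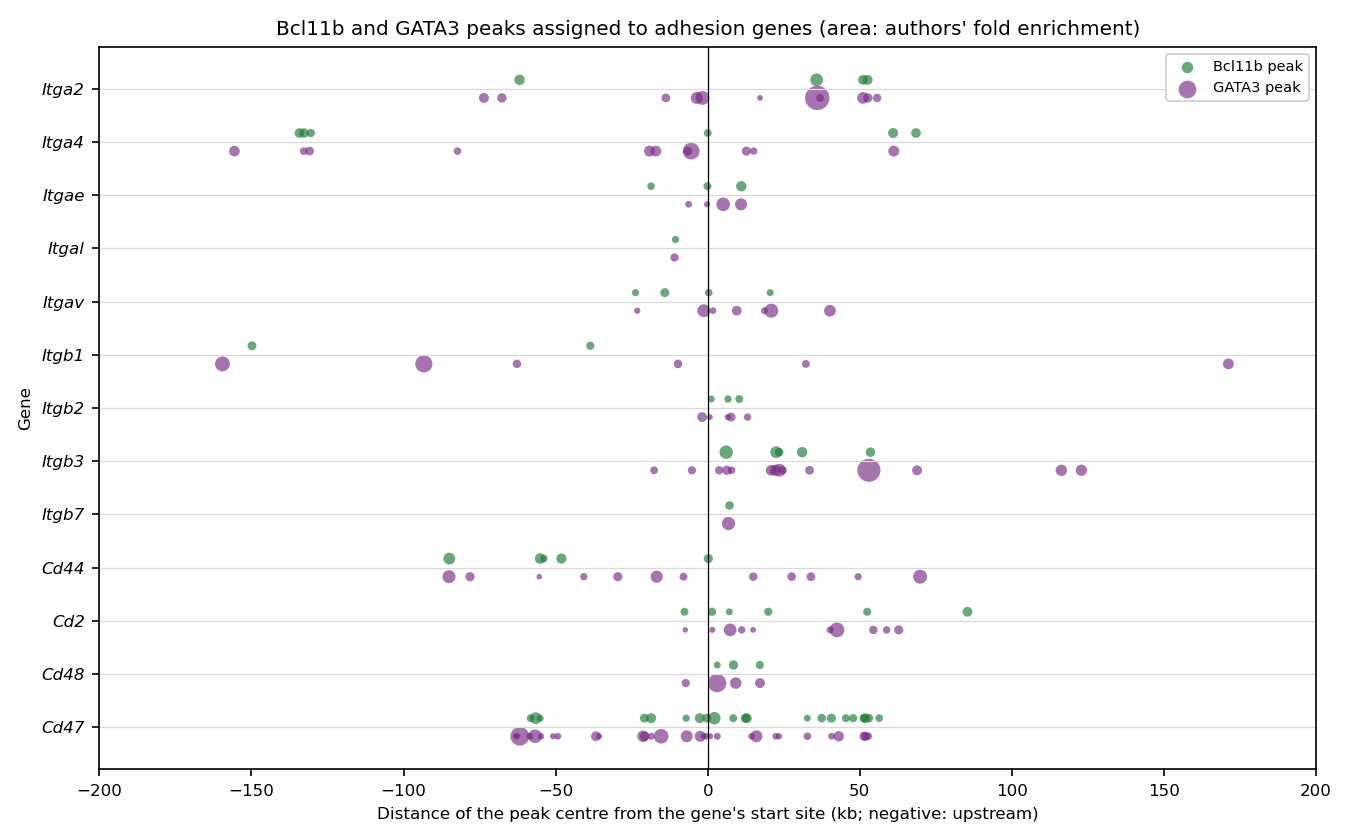
Positions of 180 Bcl11b (green, upper) and GATA3 (purple, lower) peaks of 13 adhesion genes, as the distance of the peak centre from the gene's start site in kb, with the area of a point given by the authors' fold enrichment. Cd47 holds 21 Bcl11b and 30 GATA3 peaks, and the largest point of Itga4 is the GATA3 peak 5.43 kb upstream; 1 peak lies beyond the axis.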

How the data were processed

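Mouse Th2 RNA was read from 16 libraries and binding from 3 ChIP-seq libraries. Per the labels, 10 ng of RNA was amplified with NuGEN Ovation V2. The tools listed in the submitters' processing notes are TopHat2 2.0.13, Bowtie, Novoalign, CASAVA 2.18 and MACS 1.4.2, with the build mm10, and their roles are not stated; the sources used here give neither strand use nor the counting tool. The authors deposited raw counts of reads per RefSeq transcript, without normalization. The RPKM are the authors' values too, scaled to transcript length and a library total. Per the file headers, peaks carry a fold enrichment (a ratio), a score of -10 log10 p, an FDR in percent and counts of tags, and these describe peaks within a list only.

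Of the transcripts of a gene, the one with the most reads was used. Genes reaching an RPKM of 1 in 2 or more of 8 libraries were tested with edgeR 4.0.16 (TMM, quasi-likelihood, unpaired, R 4.3.3), 1 fit of 4 groups per experiment and 1 of all 16 libraries for the late difference between deletions. P-values were adjusted over all genes tested (Benjamini-Hochberg, threshold 0.05). The code was tested on simulated counts. Alternatives were DESeq2 1.42.0, limma 3.58.1 on log2(RPKM + 1) and log2(RPKM + 0.1), no filter, a replicate block, subtraction of the receptor read rate, the longest transcript, only the 4 libraries compared, and leaving out each library. Peaks over input peaks (2197 of 17459 for Bcl11b, 1413 of 28612 for GATA3) were left out; peaks overlapped when they shared at least 1 base. Genes named with their libraries are those called in a KO comparison or in a difference of effects and the 10 with the highest mean RPKM, with Itgax added after its values were seen; the wider lists name called genes with the smallest p-values, of which 1 is not reported here. The genes and lists were chosen with earlier results of these data known. Promoter windows were matched by symbol.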

Additional observations from a re-analysis of the deposited data

Results flagged for a closer look

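Of the genes tested, 4 were picked out because the effect of Gata3 deletion differed between late and early cells. The late effect minus the early effect was 2.71 for Itga4, 1.37 for Itgb7, -0.80 for Itgal and -1.44 for Cd44, each on the log2 scale and each past the threshold in edgeR's test of the difference. Itga4 was lower in both early KO libraries than in both early WT libraries, and within the early WT range in both late KO libraries. The late and early WT libraries of the same number in this experiment were closer to each other than replicates of a stage were, and what this does to the stage difference was not tested.

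Itga7 was picked out because the late Bcl11b effect exceeded the early effect by 5.38 on the log2 scale. It rests on the 2 early WT libraries, which carry the high rate of receptor reads. Only through those libraries did Itga7 pass the filter.

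Itgae was picked out because the late Bcl11b effect exceeded the late Gata3 effect by 3.49 on the log2 scale, at levels of at most 12.97 CPM. It passed the filter only through the groups where it was higher, late Bcl11b KO and Gata3 WT.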

How the results depend on the processing

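Counts of called adhesion genes depended on the setting. In early Bcl11b KO the count was 8, and 16 or 17 with limma on log2(RPKM + 1) or log2(RPKM + 0.1) and 3 when only the 4 compared libraries were fitted. Over all 10870 genes, limma called 6906 or 6820, against 2288 in the main fit. With only the 4 libraries, 1014 of 10849 genes were called. Limma moved the median of all genes in that comparison by 0.86 or 1.14. In late Bcl11b KO the count of 1 became 3 with DESeq2, 0 with limma on log2(RPKM + 0.1) and 8 with only 4 libraries. Over all genes, 241 calls became 588, 60 and 1583 in these settings. In late Gata3 KO the count of 8 became 5 with limma on log2(RPKM + 0.1) and with only 4 libraries. Over all genes, 1488 calls became 1109 and 1107. The Bcl11b stage difference (1) became 2 with DESeq2, 2 without the filter, and 15 or 12 with limma and a pseudocount of 1 or 0.1. There limma called 6084 or 5621 of all 10870 genes and DESeq2 902, against 352 in the main fit. Without the filter, 529 of 21796 genes were called. The Gata3 stage difference (4) became 10 without the filter, where 2077 of 16268 genes were called. The late difference between deletions (1) became 2 with DESeq2 and 0 with background subtraction. Over all 11486 genes, 421 calls became 661 and 361. With the replicate block, the Gata3 stage difference gave 9 calls, and 2388 of all 10601 genes were called, against 1294 in the main fit. No other count of called adhesion genes moved by over 1.5 times with the block. Same-numbered Gata3 libraries deviated together (r from 0.14 to 0.551), Bcl11b ones less (r from -0.066 to 0.283), and no label ties a replicate number to a shared source. Genes with a peak numbered 32 (91.4%, against 47.5% of all symbols), and 8 at a fold enrichment of at least 10 (22.9%, against 5.05%). Leaving out single libraries gave 6 to 8 calls in early Bcl11b KO, 0 to 3 in late Bcl11b KO, 8 to 13 in early Gata3 KO, 5 to 9 in late Gata3 KO, 0 to 3 and 3 to 6 for the Bcl11b and Gata3 stage differences, 0 to 1 between deletions, 9 to 15 between late and early Bcl11b WT and 0 between late and early Gata3 WT. Of 802 refits of 50 single calls, 690 kept the call, 106 lost it and 6 reversed. The reversed ones concern late against early Bcl11b WT with limma: log2 differences of 0.959 or 0.967 for Cd47, 0.684 or 0.697 for Itgb3 and 0.394 or 0.403 for Selplg, where limma moved the median of all genes by 1.04 or 1.43.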
